A study of Mus musculus with 10 samples.

Results

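Phospholipase C enzymes cut the membrane lipid phosphatidylinositol bisphosphate into inositol trisphosphate (IP3), which opens calcium channels of the endoplasmic reticulum, and diacylglycerol, which activates protein kinases C and D. Receptors coupled to Gq proteins act mainly through the beta enzymes, receptor tyrosine kinases through the gamma enzymes, and Ras-type GTPases bind the epsilon enzyme, while the delta enzymes respond to calcium. The epsilon enzyme, encoded by Plce1, is known in the kidney because recessive loss of human PLCE1 causes nephrotic syndrome of early onset, and its transcript is prominent in podocytes, the epithelial cells of the glomerular filter. The transcripts of 10 phospholipase C genes (Plce1, Plcb1, Plcb2, Plcb3, Plcb4, Plcg1, Plcg2, Plcd1, Plcd3 and Plcd4) were examined here, through every probe set that the platform annotation assigns to exactly 1 gene of this set. That gave 23 of the 45037 probe sets measured. A gene was read through whichever of its probe sets had the strongest average signal, so the 10 genes stand among 18193.

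The arrays hold RNA of glomeruli isolated after perfusion with magnetic beads from male mice aged 27 days, still unweaned, on an FVB/N background reached by 4 generations of backcrossing. The 5 mutants were heterozygous for a knock-in R394W allele of Wt1 (Wt1 +/R394W), a substitution known from Denys-Drash syndrome, and the 5 controls were Wt1 +/+ littermates. All mice thus kept at least 1 wild-type Wt1 allele, and per the submitters the mutants had slight albuminuria and lacked mesangial lesions in the light microscope. Each mouse gave 1 array, the number of mice limits the precision, and values are log2 signals, on which 1 unit is a doubling.

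Podocyte marker signal was high in all preparations, which does not measure how much tubule they held. The mean of 7 podocyte markers (Nphs1, Podxl, Synpo, Ptpro, Clic5, Cdkn1c and Nes) lay between 13.14 and 13.29 in wild types and between 13.03 and 13.31 in mutants. Carry-over of tubule differed more: the mean of 10 proximal tubule markers was 6.75 to 9.45 in the wild types and 6.95 to 10.59 in the mutants. The mean of 10 distal nephron and collecting duct markers was 6.67 to 8.25 in wild types and 6.70 to 8.48 in mutants. Among these Umod was strongest, at 9.47 to 12.91 in wild types and 9.67 to 12.76 in mutants. Wt1 itself, which carries the mutation, read 11.30 ± 0.17 (SD, n = 5) in wild types and 11.63 ± 0.16 (SD, n = 5) in mutants, a difference of 0.33 that was not called over all probe sets (limma, adjusted p = 0.244) and had a two-sided p of 0.0159 by exact permutation of this gene alone. Transcript level is no check of the labels for a substitution allele.

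The promoter of Plce1 is shown because Wt1 encodes a zinc finger transcription factor that binds GC-rich DNA. RefSeq (GRCm38.p6) places the listed start of Plce1 on the plus strand of chromosome 19, and this start lies 43163 bases inside the annotated gene, so other starts upstream are annotated too. The 250 bases before it (chr19:38523947-38524196) read 5′ to 3′ as follows, in lower case because neither motif searched was found.
Plce1: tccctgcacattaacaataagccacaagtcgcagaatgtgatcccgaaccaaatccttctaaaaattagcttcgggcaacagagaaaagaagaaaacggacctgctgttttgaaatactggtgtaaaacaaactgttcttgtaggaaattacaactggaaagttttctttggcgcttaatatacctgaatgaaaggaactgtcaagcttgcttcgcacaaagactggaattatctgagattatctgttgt
With 50 bases after the start included, this 300-base window was 41.0% G and C, against a median of 52.7% over all promoter entries, and 12.8% of entries were as low or lower. The 2 motifs were GCGTGGGNG, a WT1-type element, and the looser GNGNGGGNG, which contains every match of the first; both strands were searched. GCGTGGGNG occurred in 1.9% and GNGNGGGNG in 39.6% of 32851 mouse promoter entries of the same length. All 10 genes had an entry (13 in all). Counted by gene over any of its entries, 0 of the 10 held the stricter motif. The looser one was held by 8, the exceptions being Plce1 and Plcg2, and the second entry of Plcb4 lacked it. The shares above are per entry, so the counts by gene are not on the same footing. Member entries with the looser motif ran from 48.0% G and C (Plcd4) to 84.0% (Plcb4). A match is a description of letters and not a binding site.
As examples, 29-base windows around a match to GNGNGGGNG (in capitals) upstream of the start are shown for members of the beta class and for the IP3 receptor gene Itpr3.
Plcb1: ggcggagcagGGGCGGGAGgagcggaggg
Plcb3: atagcggtggGAGGGGGCGgcaccgcccg
Plcb4: cgggagcggcGGGCGGGCGgcgccctggg
Itpr3: gggagccgcgGCGGGGGCGgggtggggtg
The promoter entries of Plcb2 and of the kinase gene Prkd1, not shown, held the looser motif too. Any relation between these letters and the changes described next was not tested.

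Plce1 was lower in every mutant than in every wild-type mouse. The wild types 1 to 5 read 11.96, 11.73, 12.02, 11.89 and 12.01, and the mutants 1 to 5 read 11.12, 11.39, 11.45, 10.91 and 11.02 (1452398_at, chromosome 19, the only single-gene probe set of Plce1). The highest mutant lay 0.28 below the lowest wild type, so the groups did not overlap, and the mutants were spread more widely (SD 0.23) than the wild types (SD 0.12). The means of 11.92 ± 0.12 (SD, n = 5) and 11.18 ± 0.23 (SD, n = 5) give a change of -0.74 ± 0.11 (SE) on the log2 scale, with a 95% interval from -0.98 to -0.50. On the linear scale the mutants held 59.7% of the wild-type signal, a 1.67-fold difference. The limma fit over all probe sets gave an adjusted p of 0.00865, and exact permutation of the mice gave a two-sided p = 0.00794, the smallest that 5 mice against 5 allow. The call was lost in a fit of only the 7 mice with neighbouring animal numbers, with each run of numbers as a block (-0.68, limma adjusted p = 0.166). Of the 127 genes called lower, 66 had a larger drop, so by size Plce1 lay near the middle of the called falls.

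The other phospholipase C genes did not pass. Of the 23 probe sets 1 was called, that of Plce1, where 0.853% of all probe sets were called and 0.462% were called lower. Of the 10 genes 1 was called, where 1.26% of all genes were called and 0.698% were called lower. Groups without overlap were seen in 1 of the 10 genes, where 3.67% of all genes showed them. Among the 22 remaining probe sets the smallest limma p was 0.0551 before and 0.550 after adjustment, with 16 changes below 0 and 6 above. Their median change was -0.09 where the median over all probe sets was -0.00. Of the 23 probe sets, 8 had a mean signal under 6, near the lower end of the scale, where this array summary compresses differences.

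**Figure D1:**
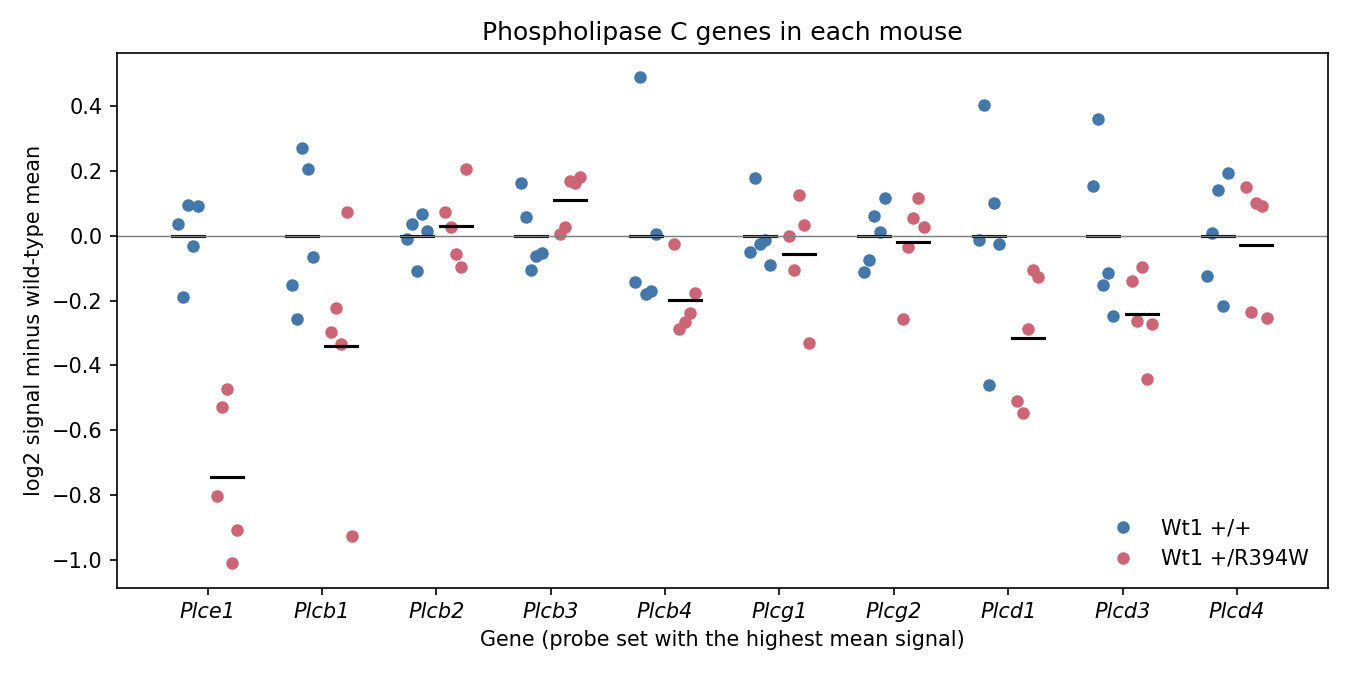
Log2 signal of each phospholipase C gene in each mouse, relative to the wild-type mean of that gene, for 5 Wt1 +/+ (blue) and 5 Wt1 +/R394W mice (red); black bars are group means. Plce1 is the only gene of the 10 in which the red points all lie below the blue ones, and its mutant mean is 0.74 lower.

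The beta enzymes, which act below Gq-coupled receptors, were represented by 4 genes. Plcb1 read 10.70, 10.59, 11.12, 11.05 and 10.78 in wild types 1 to 5 and 10.55, 10.63, 10.51, 10.92 and 9.92 in mutants 1 to 5. Mutants 1, 3 and 5 lay below every wild type, mutant 5 farthest, and mutants 2 and 4 lay within the wild-type range. The change of -0.34 ± 0.17 (SE) had a 95% interval from -0.71 to 0.03 (limma, adjusted p = 0.581), and without mutant 5 it was -0.20. All 5 probe sets of Plcb1 had negative changes, from -0.34 to -0.02, and none passed. Plcb4 read 9.22, 9.85, 9.19, 9.20 and 9.37 in wild types 1 to 5 and between 9.08 and 9.34 in mutants, so wild type 2 stood above all other mice. Its change was -0.20 ± 0.12 (SE, limma adjusted p = 0.685), and -0.0773 without wild type 2. The 5 probe sets of Plcb4 did not run one way, with changes from -0.42 to 0.17, and 3 of them had a mean signal of at least 6.

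Plcb3, which shares chromosome 19 with Plce1, read between 9.43 and 9.70 in wild types and between 9.54 and 9.72 in mutants. Its change of 0.11 ± 0.07 (SE) had a 95% interval from -0.04 to 0.26 (limma, adjusted p = 0.699), an interval that does not reach the fall of Plce1. Plcb2, best known from blood cells, read between 7.03 and 7.20 in wild types and between 7.04 and 7.34 in mutants, with a change of 0.03 ± 0.07 (SE) and an interval from -0.12 to 0.18. In both genes the genotypes overlapped.

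The gamma enzymes, which receptor tyrosine kinases phosphorylate, did not pass either, and their intervals lay near 0. Plcg1 read 10.24, 10.47, 10.26, 10.28 and 10.20 in wild types 1 to 5 and 10.29, 10.18, 10.42, 10.32 and 9.96 in mutants 1 to 5, a change of -0.06 ± 0.09 (SE) with an interval from -0.25 to 0.14. Its 2 other probe sets had low means of 5.47 and 5.61 and changes of 0.00 and 0.05. Plcg2, the isoform prominent in blood cells, read between 8.54 and 8.77 in wild types and between 8.39 and 8.76 in mutants, a change of -0.02 ± 0.08 (SE) with an interval from -0.19 to 0.15. A panel of 8 measured leukocyte markers, of which only Csf1r passed (-0.99), averaged between 6.37 and 7.23 in wild types and between 6.21 and 6.92 in mutants.

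The delta enzymes, which are activated by calcium, had negative changes that did not pass. Plcd1 read 8.79, 9.21, 8.35, 8.91 and 8.78 in wild types 1 to 5 and 8.30, 8.26, 8.52, 8.70 and 8.68 in mutants 1 to 5. The lowest wild type lay among the mutants, and the change of -0.32 ± 0.15 (SE) had a 95% interval from -0.64 to 0.01 (limma, adjusted p = 0.550). The second probe set of Plcd1 changed by -0.16 ± 0.12 (SE). Plcd3 read 8.28, 8.49, 7.98, 8.02 and 7.88 in wild types 1 to 5 and between 7.69 and 8.03 in mutants, with a change of -0.24 ± 0.12 (SE) and an interval from -0.50 to 0.01 (limma, adjusted p = 0.565), and without wild type 2 the change was -0.15. All 3 probe sets of Plcd4 were weak, with means from 4.06 to 5.29, and changed by -0.14 to -0.01. The intervals of Plcb1 and Plcd1 reach below -0.50, the upper bound of the interval of Plce1, so their changes and that of Plce1 are not separated by these intervals.

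**Figure D2:**
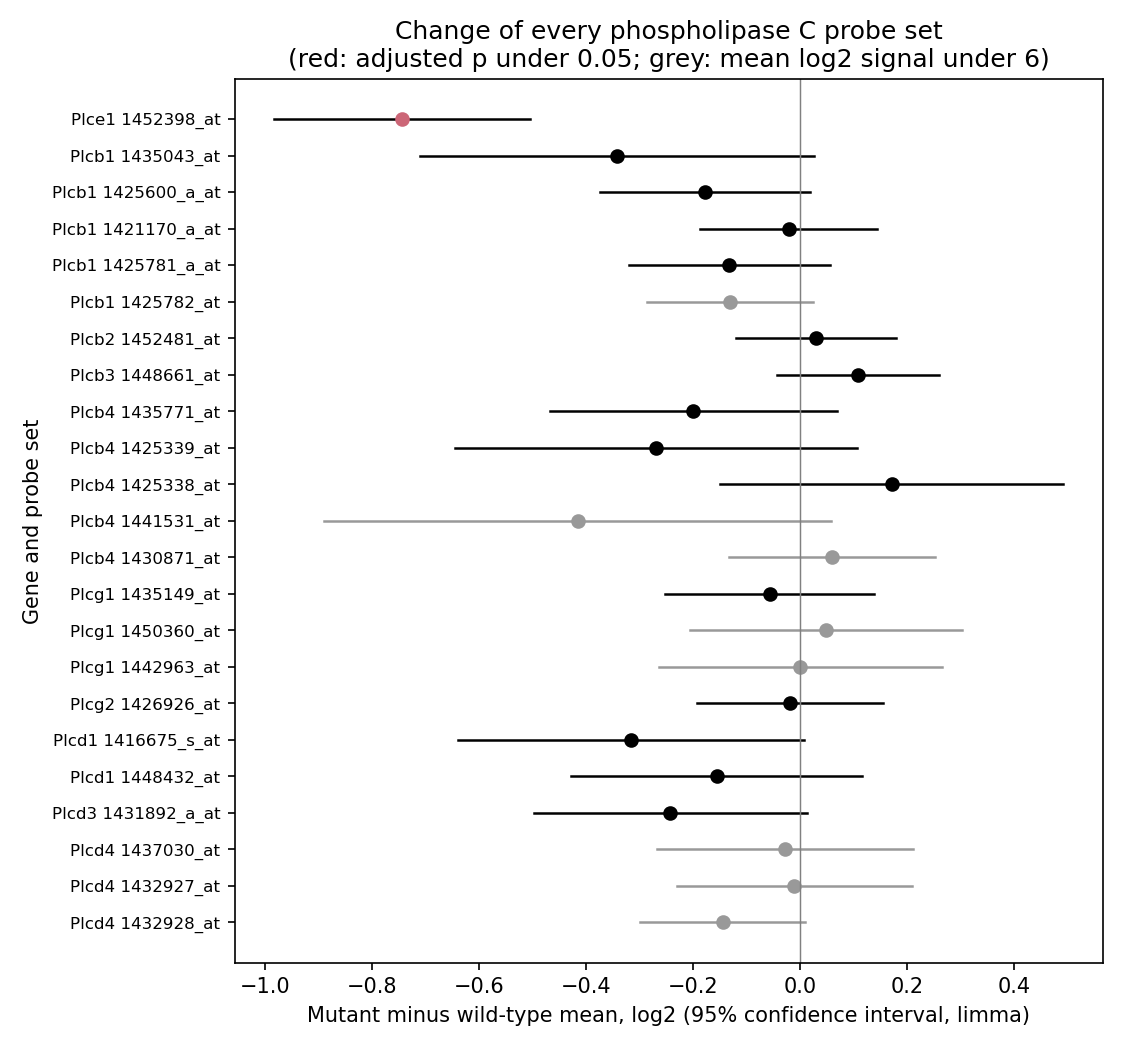
Mutant minus wild-type mean (log2) of each of the 23 probe sets with its 95% confidence interval from limma; red marks an adjusted p under 0.05 and grey a mean log2 signal under 6. The interval of Plce1 runs from -0.98 to -0.50, while the intervals of the other 22 probe sets include 0.

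Wild type 2 was the highest wild type in 4 of the 10 genes (Plcb4, Plcg1, Plcd1 and Plcd3) and the lowest in Plce1 and Plcb1. It also had the highest wild-type mean of the podocyte (13.29), endothelial (12.26), mesangial and smooth muscle (11.42) and parietal epithelial markers (8.44). Its mean of the erythroid markers (7.13) was the lowest of the wild types. The part of these markers in the family's values was not tested.

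Of the 10 genes, 4 (Plcb1, Plcb2, Plcb4 and Plcg1) lie on chromosome 2, the chromosome of Wt1, where linkage keeps flanking DNA of the donor strain with the knock-in allele through backcrossing. None of their 14 probe sets passed, and 9 of the 14 changes were negative.

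The fall of Plce1 was set against each other gene of the family in the same mouse, as the difference of the 2 log2 values. Of 9 such pairs, 6 differed between genotypes by an exact permutation test with Benjamini-Hochberg adjustment over the 9 pairs. In 5 pairs the genotypes did not overlap at all, with exact p = 0.00794 and adjusted p = 0.0143. All 9 differences hold the same Plce1 values, which did not overlap on their own, so the pairs are not separate results. The change relative to Plcb3 was -0.85 ± 0.15 (SE), and the changes relative to Plcb2, Plcg1, Plcg2 and Plcd4 were -0.77, -0.69, -0.72 and -0.71. Plcd4 had a mean signal of only 5.29, where differences are compressed, so its pair mostly restates Plce1. Relative to Plcd3 the change was -0.50 ± 0.18 (SE, exact permutation, adjusted p = 0.0476), with overlap between genotypes, and this call was lost in 7 of the 10 fits that leave out 1 mouse (adjusted exact p up to 0.0833), holding without wild type 2, mutant 2 or mutant 3.

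In the remaining 3 pairs the difference did not pass. Plce1 relative to Plcb4 changed by -0.54 ± 0.22 (SE), with a 95% interval from -1.04 to -0.04 and an adjusted p of 0.0612 by exact permutation. Relative to Plcb1 the change was -0.40 ± 0.21 (SE) with an interval from -0.89 to 0.08 (adjusted exact p = 0.0714), and relative to Plcd1 it was -0.43 ± 0.26 (SE) with an interval from -1.02 to 0.16 (adjusted exact p = 0.119). Without wild type 2 the pairs with Plcb4 and Plcd1 passed (adjusted exact p = 0.0204 and 0.0446). Whether Plce1 fell more than Plcb1, Plcb4 or Plcd1 is therefore not settled by these mice.

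Plce1 also fell relative to podocyte markers of the same arrays. Plce1 minus the mean of the 7 markers was -1.22, -1.56, -1.15, -1.25 and -1.24 in wild types 1 to 5 and -1.97, -1.78, -1.86, -2.12 and -2.28 in mutants 1 to 5. The genotypes did not overlap, and wild type 2 lay closest to the mutants. The change of -0.72 ± 0.12 (SE) had an exact two-sided permutation p of 0.00794, the smallest possible, while the marker mean itself changed by -0.02 ± 0.06 (SE, exact permutation p = 0.730). The same separation was seen against each of the 7 markers alone, with the smallest change, -0.50, against Synpo, an actin-associated protein, and the largest, about 1 unit down, against Cdkn1c, a cell cycle inhibitor. These 2 differences hold the markers' own changes, -0.24 ± 0.09 (SE) for Synpo and 0.26 ± 0.08 (SE) for Cdkn1c. All 7 differences, and that against the marker mean, hold the same Plce1 values. Those values did not overlap on their own, so the differences are not separate results. Of the 7 markers 5 had negative and 2 positive changes, and none was called. In whole glomeruli, fewer cells of a type and less RNA per cell cannot be told apart by Plce1 alone, and these differences give its level beside that of other podocyte transcripts.

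**Figure D3:**
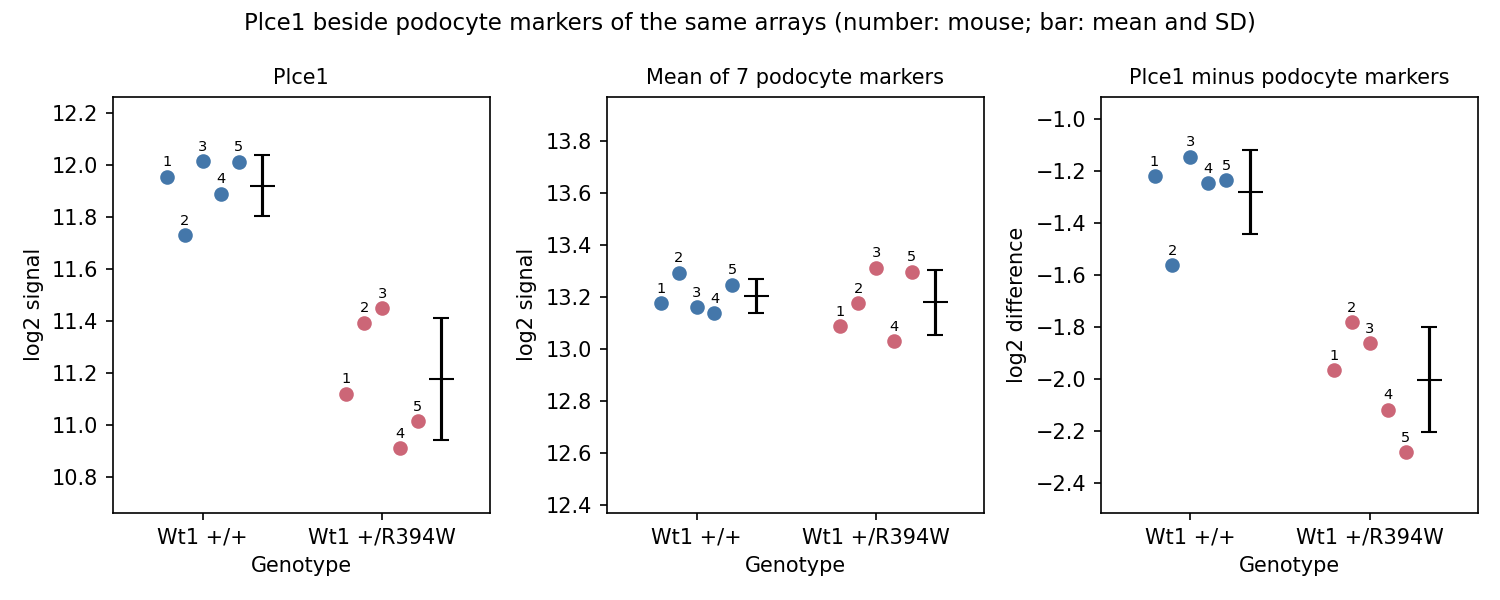
Plce1, the mean of 7 podocyte markers, and their difference in each mouse (log2; numbers name the mouse, bars are mean and SD, n = 5; each panel spans the same range). Plce1 and the difference are lower in all 5 mutants, while the marker means of 13.14 to 13.29 in wild types and 13.03 to 13.31 in mutants overlap.

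Markers of other cells were compared with Plce1 across mice. Mutant 4, with the lowest Plce1 (10.91), had the highest proximal tubule mean (10.59), whereas mutant 5, with the next lowest Plce1 (11.02), had the lowest of the mutants (6.95). A tubule score was the mean of the proximal tubule and the distal nephron and collecting duct markers. In a fit with this score as a covariate the change of Plce1 was -0.74 (limma, adjusted p = 0.0131). Endothelial means lay between 12.11 and 12.26 in wild types and between 11.94 and 12.33 in mutants. The mean of 4 measured erythroid markers, of which only Slc25a37 passed, was apart between genotypes like Plce1, at 7.13 to 7.82 in wild types and 6.66 to 7.11 in mutants; its part in the result was not tested. The mean of 7 mesangial and smooth muscle markers overlapped, at 11.06 to 11.42 in wild types and 11.23 to 11.72 in mutants. The part of any of these cells in the Plce1 values was not tested, and the covariate fit is no such test.

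The genes most like Plce1 across the 10 arrays were sought among 12260 genes with a mean signal of at least 6, by Pearson's r. They were Btbd1 (r = 0.98), Dennd11 (0.98), Snx31, a sorting nexin (0.97), Tesk2, a kinase (0.97), and Sdc1, the heparan sulfate proteoglycan syndecan-1 (0.97). These values hold the difference between genotypes, and Snx31 (-1.98), Sdc1 (-0.72) and Tesk2 (-0.49) passed the limma test while Btbd1 (-0.24) and Dennd11 (-0.44) did not. Sdc1 read between 10.04 and 10.33 in wild types and between 9.26 and 9.79 in mutants, and like Plce1 it was lower in mutants 1, 4 and 5 than in mutants 2 and 3. With the genotype means removed, the closest were Dennd11 (0.96), Btbd1 (0.95), Gm4285 (0.95), Tmc7 (0.94) and Tmem29 (0.94), of which only Dennd11 and Btbd1 were also in the first set. These correlations share libraries and are a description of 10 arrays.

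The wider pathway was read through 10 gene lists with 135 measured genes. Of these, 3 fell (Ntrk3, Itpr3 and Prkd1), 0 rose and 132 did not pass, which is 2.22% called against 1.26% of all genes. The lists were chosen with earlier results of these data known, so this share is a description and not a test. Groups without overlap were seen in 5 of the 135 genes, about the share of 3.67% over all genes. The median change of the 135 genes was -0.03, against 0.00 over all genes.

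Among the receptors and G proteins upstream of the beta enzymes, none passed. In the list of 11 alpha subunits and RGS proteins, which speed the shut-off of G proteins, Rgs3 changed by -0.30 ± 0.07 (SE, limma adjusted p = 0.101), with mutants at 11.43 to 11.69 and wild types at 11.73 to 11.93. Rgs4 changed by -0.31 ± 0.19 (SE) and Gna15 by -0.12 ± 0.08 (SE). Among 16 measured Gq-coupled receptors, those with the smallest p were F2r, the thrombin receptor (0.13 ± 0.06 SE), S1pr2, a sphingosine phosphate receptor (0.22 ± 0.11 SE), and the vasopressin receptor gene Avpr1a (0.42 ± 0.21 SE).

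Upstream of the gamma enzymes, 1 of 11 receptor tyrosine kinase genes passed. Ntrk3, the receptor of neurotrophin 3, read 9.71, 9.31, 9.48, 9.62 and 9.50 in wild types 1 to 5 and 8.07, 7.90, 7.79, 7.71 and 8.19 in mutants 1 to 5. Every mutant lay more than 1 unit below every wild type, and the change of -1.59 ± 0.10 (SE) had a limma adjusted p of 4.24e-05. Of its 8 probe sets 5 were called, and all 8 had negative changes, from -1.59 to -0.16. Averaged over these probe sets the change of Ntrk3 was -0.83 (limma, adjusted p = 0.000165). The median change of the list was -0.12.

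The small GTPases and partners of the epsilon enzyme did not pass in any of 15 measured genes. Akap6, an anchoring protein that binds the epsilon enzyme in heart muscle, read between 6.06 and 6.37 in wild types and between 6.58 and 7.74 in mutants, a change of 0.86 ± 0.21 (SE, limma adjusted p = 0.112) without overlap. Iqgap1, a scaffold protein reported to bind the epsilon enzyme in podocytes, changed by 0.39 ± 0.12 (SE, limma adjusted p = 0.262). Rapgef3, which encodes the cyclic AMP sensor Epac1, changed by -0.26 ± 0.09 (SE, limma adjusted p = 0.352).

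In the synthesis of the substrate lipid none of 16 measured genes was called, and the median change was 0.03. Cds1, which makes the CDP-diacylglycerol used for phosphatidylinositol, changed by 0.32 ± 0.10 (SE), Pi4ka, a phosphatidylinositol kinase, by -0.11 ± 0.06 (SE), and Cds2 by 0.14 ± 0.07 (SE).

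Downstream of IP3, 1 of 8 measured genes fell. Itpr3, which encodes the type 3 IP3 receptor, read 10.36, 10.15, 10.60, 10.29 and 10.45 in wild types 1 to 5 and 9.51, 9.46, 9.96, 9.40 and 9.64 in mutants 1 to 5. All mutants lay below all wild types, and mutant 3 was the highest mutant, as it was for Plce1. Its change of -0.78 ± 0.11 (SE) (1417297_at, chromosome 17, limma adjusted p = 0.00894) was close in size to that of Plce1. The call was kept in each of the 10 fits that leave out 1 mouse (adjusted p up to 0.0287) and lost in the 7 mice of neighbouring animal numbers with their run of numbers as a block (-0.78, adjusted p = 0.158). Itpkb and Itpkc, kinases that convert IP3, changed by -0.17 ± 0.08 and -0.08 ± 0.08 (SE).

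Downstream of diacylglycerol, 1 of 17 measured genes of the list fell. Besides kinases and exchange factors the list holds Chn1 and Chn2, which are neither. It also holds Prkcz and Prkci, protein kinases C that diacylglycerol does not activate. Prkd1, protein kinase D1, read 8.73, 8.81, 9.02, 8.74 and 8.69 in wild types 1 to 5 and 8.36, 8.32, 8.31, 7.91 and 8.31 in mutants 1 to 5. The groups did not overlap, and mutant 4 lay well below the other mutants. The change of -0.55 ± 0.10 (SE) had a limma adjusted p of 0.0243, a call lost without wild type 1, 2, 3 or 4 or without mutant 2 or 3 (adjusted p up to 0.0627) and in the mice of neighbouring animal numbers (adjusted p = 0.185). The second probe set of Prkd1 changed by -0.48 ± 0.10 (SE, limma adjusted p = 0.0574). None of the 10 diacylglycerol kinases and lipid phosphatases passed, with Plpp2 at 0.27 ± 0.08 (SE), Plpp3 at -0.43 ± 0.14 (SE) and Dgkz at -0.15 ± 0.06 (SE).

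Calcium entry and calcineurin genes did not pass in any of 23 measured members. Camk2d, a calmodulin-dependent kinase, changed by 0.40 ± 0.13 (SE, limma adjusted p = 0.307), Nfatc4, a calcineurin-dependent transcription factor, by -0.34 ± 0.11 (SE, limma adjusted p = 0.318), and the calcium pump gene Atp2a3 by -0.18 ± 0.08 (SE). The 8 other phospholipase C genes (Plch1, Plch2, Plcz1, Plcl1, Plcl2, Plcxd1, Plcxd2 and Plcxd3) did not pass either. Their median change was 0.11, with Plcz1 at -0.11 ± 0.07 (SE), Plcl1 at 0.15 ± 0.10 (SE) and Plcl2 at 0.15 ± 0.10 (SE).

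**Figure D4:**
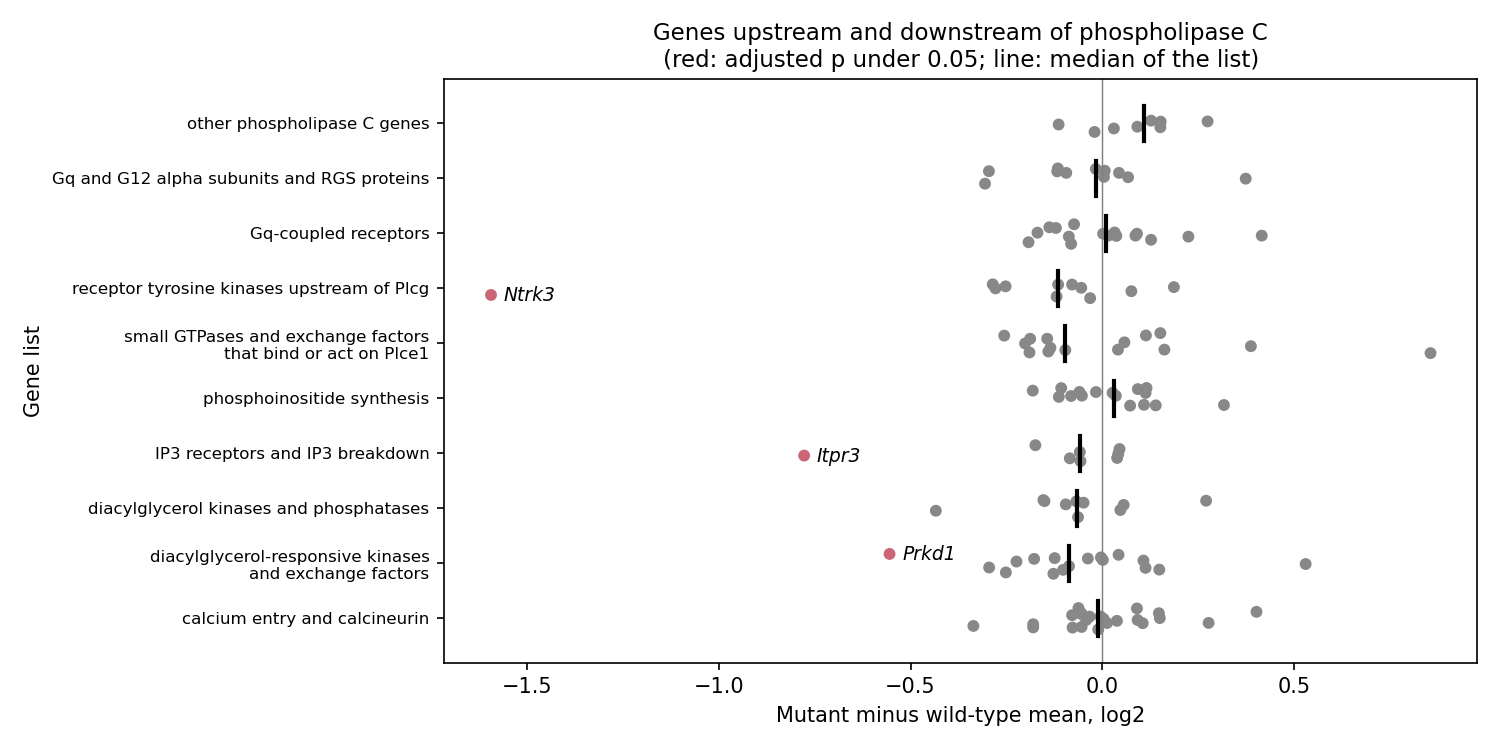
Mutant minus wild-type mean (log2) of every measured gene in 10 lists around phospholipase C; each point is a gene, black lines are list medians and red marks an adjusted p under 0.05. Ntrk3 (-1.59), Itpr3 (-0.78) and Prkd1 (-0.55) are the red points, and list medians lie between -0.12 and 0.11.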

How the data were processed

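The deposited values are log2 signals that the authors obtained with RMA (robust multi-array average), per the submitters' processing notes; its version and settings are unstated there. RMA makes array distributions alike and compresses changes of weak genes. Each of the 10 columns was assigned to a mouse by its label. Of 45101 probe sets, 64 controls were left out. Names came from the platform annotation, where 34945 probe sets had 1 gene, 932 several and 9160 none listed; 34741 matched RefSeq (GRCm38.p6) by gene number. Replicate numbers only name mice, and p-values measure the spread between mice. Which mice shared a litter is not given, so the main tests had no litter term. Runs of neighbouring animal numbers were used as a block only in an alternative fit, and whether they follow litters is unknown.

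The limma package (version 3.58.1, in R 4.3.3) compared the genotypes over 45037 probe sets, two-sided, with Benjamini-Hochberg adjustment over all of them and a call at an adjusted p under 0.05; this fit was tested on simulated data. Each gene was read through its probe set with the highest mean. Single values and differences between genes were tested by exact permutation of the mice. Standard errors of differences between genes come from each pair's own spread; the limma fit over the 9 difference rows gave 0.18 for every pair. Genes named are all members, Wt1, the called genes or otherwise the 3 smallest p of each pathway list, and the 5 most alike by each of 2 measures; others were named after their values were seen. Members and lists were chosen with earlier results of these data known. Alternatives covered scaling, filters, variance models, array weights, a tubule covariate, gene means and each mouse left out. Motif letters were searched with Python (version 3.11.15), and figures drawn with matplotlib (version 3.10.9).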

Additional observations from a re-analysis of the deposited data

Results flagged for a closer look

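Single mice stood apart from the other 4 of their genotype in 7 of 56 groups of values examined with Dixon's test, where chance gives about 1 in 20. Wild type 2 was high for Plcb4 (1435771_at, 9.85 against 9.19 to 9.37 in the other wild types) and for Plcg1 (1435149_at, 10.47 against 10.20 to 10.28), and it was low for Plce1 minus the podocyte marker mean (-1.56 against -1.25 to -1.15). Mutant 4 was low for a second probe set of Plcb4 (1425339_at, 6.74 against 7.05 to 7.12) and for Prkd1 (1447623_s_at, 7.91 against 8.31 to 8.36). Wild type 5 was low for a second probe set of Plcb1 (1425600_a_at, 7.77 against 8.05 to 8.16), and wild type 4 was low for a weak probe set of Plcd4 (1432927_at, 4.11 against 4.44 to 4.57).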

How the results depend on the processing

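The fall of Plce1 kept its direction in all 21 alternatives, with values from -0.81 to -0.68, and its call in 20 of them. It was lost with only the mice of neighbouring animal numbers (3 wild types and 4 mutants) and their run of numbers as a block, where the change was -0.68 (adjusted p = 0.166), 0 phospholipase C probe sets and 126 probe sets in all were called; that fit has fewer mice. Leaving out 1 mouse gave falls of Plce1 from -0.81 to -0.68 (adjusted p up to 0.0281) and 1 called phospholipase C probe set each time. Plce1 minus the podocyte markers then changed by -0.79 to -0.65, and 5 to 8 of the 9 pairs of Plce1 with another gene were called. With all mice and the median of the podocyte markers in place of their mean, Plce1 minus the markers changed by -0.63. The total of called probe sets, 384, was 144 at an adjusted p under 0.01, 242 without wild type 1 and 216 without wild type 4, and ran from 216 to 301 with 1 mouse left out. Changes near 0 turned sign: Plcb2 at -0.0039 and Plcd4 at 0.0594 in the neighbouring mice, and with 1 mouse left out Plcb2 ran from -0.0132 to 0.0617, Plcg1 from -0.10 to 0.0125, Plcg2 from -0.0528 to 0.0405 and Plcd4 from -0.0827 to 0.0278. Plcd4 was not measured under the filter at a mean of 6. The calls of Itpr3 and Prkd1 were also lost in the neighbouring mice (adjusted p = 0.158 and 0.185), that of Ntrk3 in none of 21 alternatives. A comparison between probe sets of Plce1 was not run because only 1 was found. Signal limits Plcd4 and 8 of the 23 probe sets.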
